A study of Bos taurus with 25 samples.

Results

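GPNMB, SPP1 (osteopontin) and 6 genes of macrophages (CD68, CD163, CTSK, MARCO, CD14 and CSF1R) were followed in liver and mammary biopsies of lactating Holstein cows. A probe belonged to the set when the transcript named for it on the array is paired with 1 of these 8 symbols. No probe was matched to MARCO, which is not analysed here, and 13 probes of the other 7 genes were found among 43653 probes of 27841 differently named genes. The set was chosen by log2 array values, because GPNMB is higher in the liver of cows given vitamin B12, alone or together with vitamin B9. Differences of these livers from Control are therefore given as a description with no p-value for the 7 genes, and nothing is read from counts of calls there. The tests between tissues and those of relations within groups also include these livers.

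GPNMB is a transmembrane glycoprotein of macrophages and pigment cells that rises when lysosomes are loaded with lipid. SPP1 encodes a secreted phosphoprotein that binds integrins and CD44, made by lipid-laden macrophages and injured liver, and also secreted into milk by the mammary epithelium. The other genes mark macrophages, which in the liver are mostly the Kupffer cells of the sinusoids.

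The study asked how weekly injections of vitamins B9 and B12 change gene expression in the 2 tissues. Holstein cows received intramuscular injections of 5 mL of saline (Control), 320 mg of folic acid (B9), 10 mg of cyanocobalamin (B12) or both vitamins (B9 + B12), and were biopsied 64 ± 3 days after calving. One-colour Agilent arrays were available for 12 liver samples (3 Control, 3 B9, 4 B12 and 2 B9 + B12 cows) and 13 mammary samples (3, 3, 4 and 3 cows), and 12 cows gave both tissues. Values are log2 intensities after background correction and quantile normalization of the arrays of a tissue, and each gene stands for its brightest probe in the tissue unless another is named.

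The median signal was between 2.30 and 10.5 times the background in liver arrays and between 2.92 and 5.06 times in mammary arrays, and the number of arrays limits the precision. All 8 hepatocyte markers found were higher in the liver, with ALB (albumin) 10.79 higher on the log2 scale, and 7 of 9 genes of the milk-secreting epithelium were lower there; the other two, KRT8 and KRT18, encode keratins that hepatocytes also make. The liver arrays of cow 57 (B9) and cow 32 (B9 + B12) stood apart, with median correlations of 0.972 and 0.973 with the other liver arrays, against at least 0.989 for the others. The differences that rest on them are also given without cow 57 for B9 and without cow 32 for B9 + B12, the latter leaving cow 38 alone in the group. A biopsy holds many cell types, so that fewer cells of a type and less RNA per cell cannot be told apart.

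The array probes of GPNMB and SPP1 carry the names of transcripts NM_001038065 and NM_174187. The study designed quantitative PCR primers to the same transcripts. Their sequences, 5′ to 3′, are shown because GPNMB led the choice of the set and SPP1 separated the B12 livers from Control, and their PCR measurements are not analysed here.
GPNMB forward: agggtcagtactcgttcattcatttt
GPNMB reverse: ttcaggtatgtccacaagattgtca
SPP1 forward: aaatgatggccgaggtgatagt
SPP1 reverse: tcttaggtgcgtcatgcatctc

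In the liver, the groups that had received vitamin B12 had the highest mean GPNMB. Control cows 42, 43 and 51 had log2 intensities of 10.06, 8.96 and 8.76. B12 cows 36, 37, 40 and 52 had 11.99, 10.51, 10.84 and 10.68, and B9 + B12 cows 32 and 38 had 12.35 and 11.56. All 6 arrays with B12 lay above all 3 Control arrays. The B12 mean exceeded the Control mean by 1.75 (SE 0.72), or 3.35-fold, and the B9 + B12 mean exceeded it by 2.70 (SE 0.85), or 6.49-fold. Without cow 32 the latter was 2.30. Both differences share the same Control arrays, and both were used to choose the gene.

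**Figure D1:**
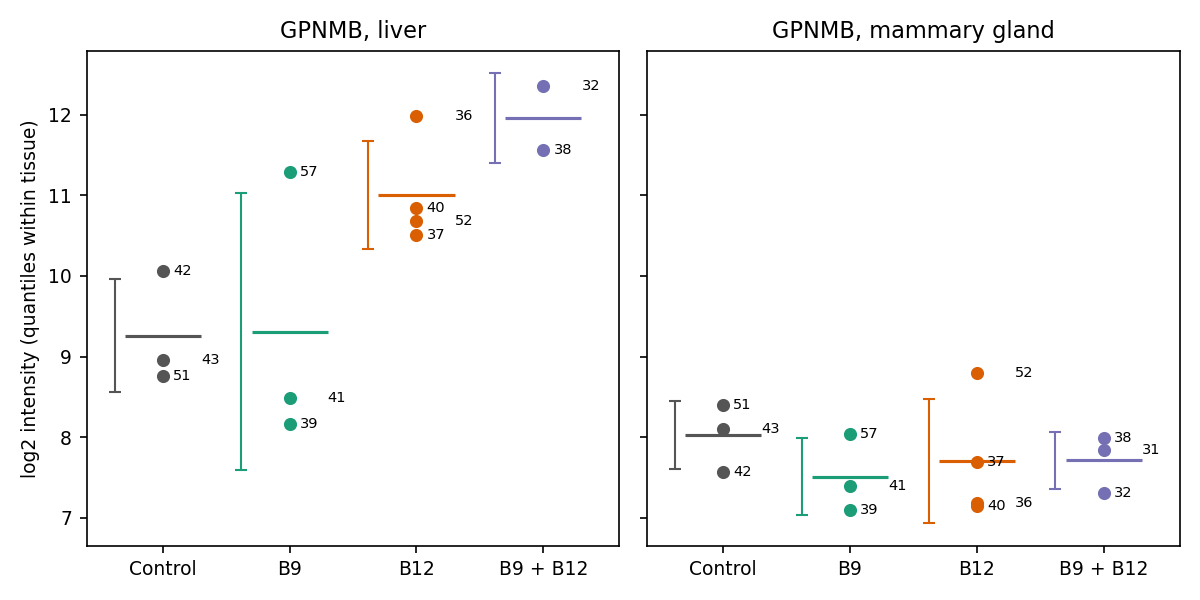
GPNMB log2 intensity (y axis) on each array by treatment (x axis) in the liver (left) and mammary gland (right), labelled with the cow number, with the group mean (line) and SD (bar at its left). The 6 liver arrays of cows given B12 lie between 10.51 and 12.35, above the 3 Control arrays, while the mammary groups overlap; the tissues were normalized separately.

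B9 alone gave a split group. B9 cows 39, 41 and 57 had 8.16, 8.48 and 11.29, so that 2 cows lay below every Control cow and cow 57 above all of them. The B9 mean differed from the Control mean by 0.05 (SE 0.76, 95% interval −1.66 to 1.76, adjusted p = 0.994 by limma). Without cow 57 the difference was −0.94 (adjusted p = 1 by limma). With slide as a fixed block it was 1.76 (SE 0.73, adjusted p = 0.222 by limma), cow 57 being the 1 B9 cow whose liver array shared a slide with that of a Control cow. In order of their means, the liver groups ran from B9 + B12 (11.96 ± 0.56, SD, n = 2) through B12 (11.01 ± 0.67, n = 4) and B9 (9.31 ± 1.72, n = 3) to Control (9.26 ± 0.70, n = 3). B9 overlapped each neighbour in this order, and B9 + B12 overlapped B12.

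The second GPNMB probe gave the same picture, with correlations between the probes of 0.998 over 12 liver arrays and 0.990 over 13 mammary arrays. Its differences in the liver were 0.16 (SE 0.76) after B9, 1.78 (SE 0.71) after B12 and 2.64 (SE 0.85) after both vitamins. Arrays of a treated and a Control cow shared a slide in 5 liver comparisons. Within those slides GPNMB was higher in the treated cow by 1.56 and 2.08 with B12, by 1.50 and 3.39 with B9 + B12, and by 1.22 with B9 (cow 57). In the processed table that the authors deposited, which the choice of genes refers to, mean log2 values of GPNMB were 9.17 in Control, 9.19 in B9, 10.98 in B12 and 11.95 in B9 + B12 livers.

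Mammary GPNMB values overlapped between all groups. Its mean was highest in Control (8.02 ± 0.42, SD, n = 3), followed by B9 + B12 (7.71 ± 0.36, n = 3), B12 (7.71 ± 0.77, n = 4) and B9 (7.51 ± 0.48, n = 3). Control cows 42, 43 and 51 had 7.57, 8.10 and 8.40. B12 cows 36, 37, 40 and 52 had 7.18, 7.70, 7.15 and 8.80; cow 36 had the highest liver value of this group and cow 52 the highest mammary value. Differences from Control were −0.51 (SE 0.42) for B9, −0.32 (SE 0.39) for B12 and −0.31 (SE 0.42) for both vitamins, each at adjusted p = 1 by limma. Within shared mammary slides they ranged from −1.30 to 0.70. The difference of the B9 effect between liver and mammary gland was 0.66 (SE 0.87, adjusted p = 0.9999 by limma). For B12 and B9 + B12, which the choice of the gene used, the effect in the liver exceeded that in the mammary gland by 1.97 (SE 0.82) and 2.83 (SE 0.93), with no test.

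SPP1 in the liver was dim, and separated B12 cows alone. Control cows 42, 43 and 51 had log2 intensities of 6.27, 6.10 and 6.33. B12 cows 36, 37, 40 and 52 had 7.01, 6.72, 7.01 and 6.60. All 4 lay above every Control cow, by 0.60 (SE 0.13) or 1.52-fold on average, which is under 2-fold. B9 + B12 cows 32 and 38 had 6.44 and 6.32, a mean difference of 0.15 (SE 0.15), or 0.09 without cow 32, and overlapped Control. Cow 36 had the highest SPP1 and the second-highest GPNMB value of the liver arrays, whereas cow 32, with the highest GPNMB, had an SPP1 value of 6.44. B9 cows 39, 41 and 57 had 6.09, 6.33 and 6.45, with a difference of 0.06 (SE 0.13, adjusted p = 0.958 by limma), or −0.0261 without cow 57. The spot of cow 39 was not well above background. The study itself named SPP1 for the liver with B12, so the B12 difference is not independent evidence. Its size depended on the processing: it was 1.39 without an offset, 0.85 without background correction, 1.61 for the processed signal (scaled to its 75th percentile), 0.97 in the authors' table and 0.47 with quantiles over both tissues. Within shared slides it was 0.62 and 0.68. Over the alternatives, shared slides among them, the B9 + B12 difference lay between 0.0438 and 0.44.

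The mean level of milk protein genes was also higher than in any Control liver in 3 of 4 B12 livers, and in every B9 and B9 + B12 liver. The mean log2 intensity of the 4 found (CSN1S1, CSN3, LALBA and PAEP) lay between 7.72 and 7.79 in Control livers, between 8.10 and 9.93 (cow 57) in B9 livers and between 8.45 and 8.81 in B9 + B12 livers. In B12 livers it was 11.30 in cow 36, 10.85 in cow 37, 9.02 in cow 40 and 7.17 in cow 52. Over the 12 liver arrays, which share slides and controls, this mean correlated with SPP1 at r = 0.65 and with GPNMB at r = 0.51. Cow 52 had the lowest level of these genes and an SPP1 value of 6.60, still above all Control cows. All 4 genes were above background on every liver array, and their part in the SPP1 difference was not tested.

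**Figure D2:**
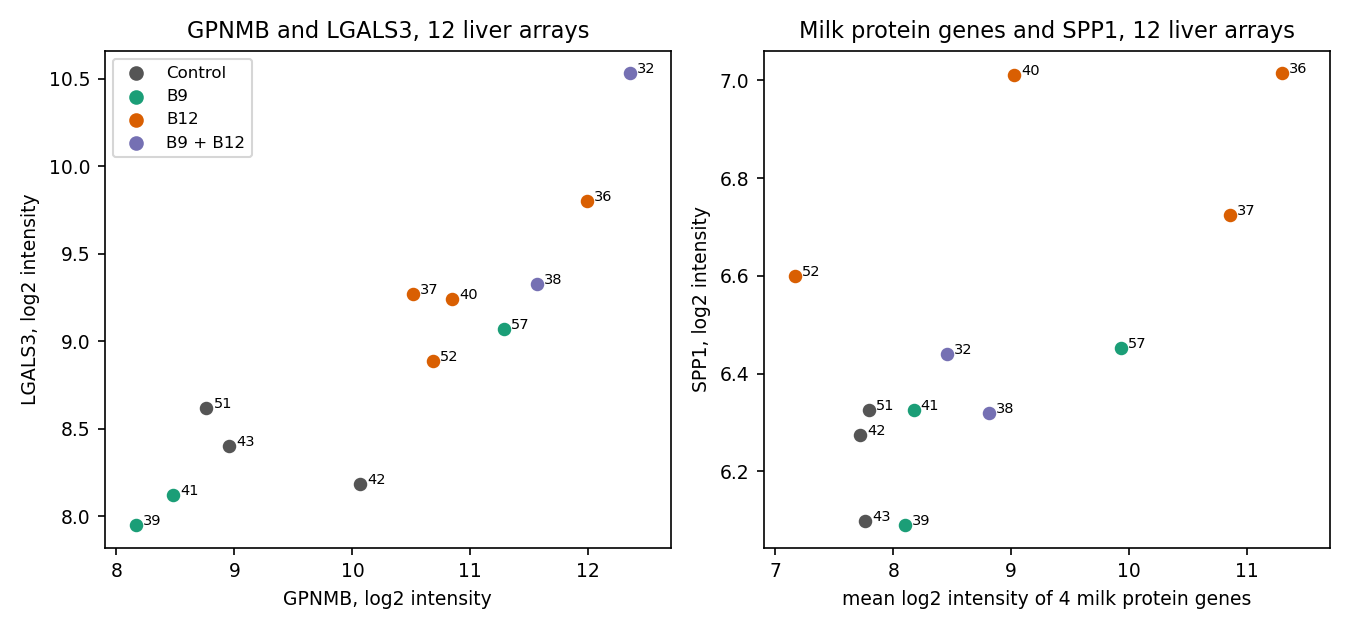
Left, LGALS3 against GPNMB, and right, SPP1 against the mean of 4 milk protein genes, as log2 intensities on each of the 12 liver arrays, coloured by treatment and labelled with the cow. LGALS3 and GPNMB run together, with cow 57 among the B12 cows, while in the right panel cow 52 has the lowest milk gene mean and an SPP1 value of 6.60.

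In the mammary gland SPP1 had log2 intensities between 13.64 and 14.94. There, Control cows 42, 43 and 51 had 14.44, 14.44 and 13.64. B9 cows 39, 41 and 57 had 14.83, 14.78 and 14.44, all above the Control cows, although cow 57 and the highest Control cow were equal to 2 decimals. The difference was 0.51 (SE 0.28, adjusted p = 1 by limma). With B12 it was 0.32 (SE 0.26) and with B9 + B12 0.27 (SE 0.28), also at adjusted p = 1 by limma, and those groups overlapped Control.

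CD14, the co-receptor through which macrophages sense lipopolysaccharide, had higher values at its brightest probe in every treated liver. Control cows 42, 43 and 51 had 12.76, 12.95 and 13.06, and B9 cows 39, 41 and 57 had 13.12, 13.24 and 13.23. B12 cows 36, 37, 40 and 52 had 13.20, 13.16, 13.21 and 13.18, and B9 + B12 cows 32 and 38 had 14.09 and 13.07. At this probe all treated arrays lay above all Control arrays, cow 38 by the smallest margin. The treated groups share the same Control arrays, and the B12 and B9 + B12 contrasts chose the genes, so these are not separate results. At the second probe the B12 group overlapped Control, with cow 37 at 11.00 and Control cow 51 at 11.06. The difference with B9 was 0.27 (SE 0.20, adjusted p = 0.906 by limma), or 0.39 (SE 0.17) at the second probe (unadjusted p = 0.0464, adjusted p = 0.906 by limma), and with slide as a fixed block 0.68 (adjusted p = 0.245 by limma). It was 0.27 (SE 0.19) with B12 and 0.66 (SE 0.23) with B9 + B12, and the latter was 0.15 without cow 32 and 1.17 without cow 38. Its 3 mammary differences lay between −0.0022 and 0.05, and the CD14 groups overlapped.

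CSF1R, the receptor for the growth factors CSF1 and IL34 on which macrophages depend, overlapped between all treatments. Over 12 liver arrays its median was 12.83 (lowest 12.49, highest 13.34), and differences from Control were −0.09 (SE 0.17, adjusted p = 0.943 by limma) for B9, −0.11 (SE 0.16) for B12 and 0.24 (SE 0.19) for both vitamins. Without cow 57 the B9 difference was −0.0396, and without cow 32 that of both vitamins was −0.0231. Its mammary differences lay between −0.09 and 0.21.

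CD163, the scavenger receptor for haemoglobin bound to haptoglobin, was lower in most B12 livers. Control livers had 8.85, 8.72 and 8.78, and B12 cows 36, 37, 40 and 52 had 8.50, 8.46, 8.86 and 8.30. Of the B12 arrays, 3 lay below all Control arrays and cow 40 was above them, for a difference of −0.25 (SE 0.18). With B9 + B12 it was −0.15 (SE 0.21), and with B9 0.02 (SE 0.19, adjusted p = 0.990 by limma). Without cow 32 the former was 0.13, and without cow 57 the latter was 0.15. In the mammary gland CD163 was dim and well above background on 10 of 13 arrays. Its B9 arrays there (6.09, 6.12 and 6.16) lay below the Control arrays (6.29, 6.20 and 6.38), by 0.17 on average (SE 0.11, adjusted p = 1 by limma).

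CD68, a membrane protein of macrophage lysosomes, and CTSK, a cysteine protease of macrophages and osteoclasts, overlapped Control in all comparisons at their brightest probes. A dimmer CTSK probe lay above all Control arrays in B9 + B12 livers (7.13 and 7.30 against 7.07 to 7.10) and on all 3 mammary B9 + B12 arrays (difference 0.13, SE 0.09, adjusted p = 1 by limma). Liver CD68 ranged from 10.90 to 11.84 and liver CTSK from 9.86 to 10.64, with the highest value of both in cow 32. Liver differences of CD68 were −0.0024 (SE 0.22) for B9 (adjusted p = 0.999 by limma), 0.0037 (SE 0.21) for B12 and 0.21 (SE 0.25) for both vitamins. Those of CTSK were 0.01 (SE 0.18), −0.06 (SE 0.17) and 0.15 (SE 0.20). Without cow 32 the B9 + B12 differences were −0.23 for CD68 and −0.15 for CTSK, and without cow 57 the B9 differences were −0.12 and −0.0536. With slide as a fixed block CTSK with B9 was 0.40 (adjusted p = 0.248 by limma). Mammary differences of CD68 lay between −0.27 and 0.05 and those of CTSK between −0.12 and 0.18.

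**Figure D3:**
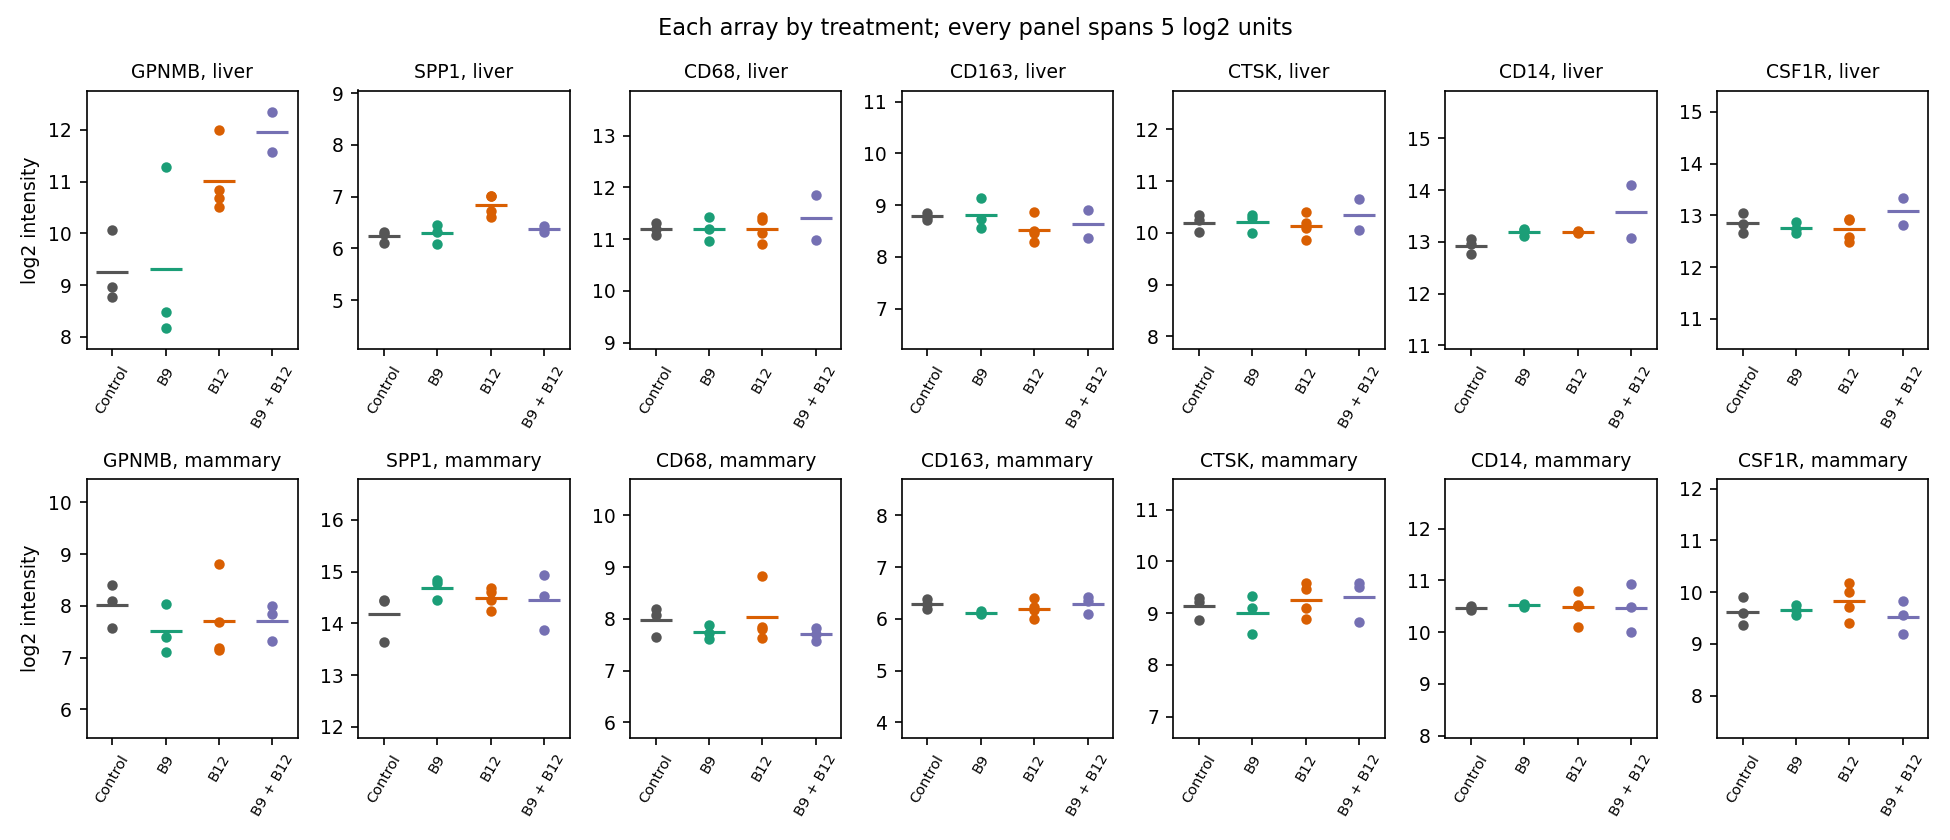
Log2 intensity (y axis) of 7 genes on each array by treatment (x axis), in the liver (top) and mammary gland (bottom), with group means as lines and the same span on every y axis. GPNMB in the liver spreads over the widest range, from 8.16 to 12.35, and SPP1 in the liver is raised in the B12 group alone.

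Counted together, no member passed the threshold of limma (adjusted p of at most 0.05 and at least 2-fold) in any of the 6 comparisons with Control, and nothing is read from the 2 of them that chose the genes. Among all 27841 genes 0% passed in liver B9, 0.00359% (1 gene) in liver B12, 0% in liver B9 + B12, and 0% in each mammary comparison. In the other 4 comparisons, of which liver B9 shares its Control arrays with those that chose the genes and is not free of that choice, 0 of 7 members had an unadjusted p below 0.05 by limma at their brightest probes (the second CD14 probe in liver B9, at 0.0464, was the exception among the other probes), against 3.18% of all genes in liver B9, 2.42% in mammary B9, 2.39% in mammary B12 and 1.92% in mammary B9 + B12, and Cyber-T, a test that borrows the spread of genes of similar intensity, called 0 as well. The B9 effect differed between tissues for 0 of 7 members by limma, against 0% of genes, and none had an unadjusted p below 0.05. The median difference of the 7 members was 0.02 for B9, 0.0037 for B12 and 0.21 for both vitamins in the liver, against 0.0054, −8e-04 and 0.024 over all genes. In the mammary gland it was −0.12, 0.05 and −0.0022, against −0.0018, 0.0021 and −0.002 over all genes.

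Separation of arrays was also set against all genes. In liver B9, 1 of 7 members (CD14) had all treated arrays above all Control arrays, against 3.62% of genes, and none had all below, against 4.61%. In liver B12 there were 3 (GPNMB, SPP1 and CD14), against 2.32% above and 2.67% below, and in liver B9 + B12 there were 2 (GPNMB and CD14), against 13.4% above and 9.3% below; these contrasts chose the genes and nothing is read from them. In mammary B9, SPP1 was above, against 3.44% of genes, and CD163 below, against 3.27%. None separated in mammary B12, against 2.24% above and 1.55% below, or mammary B9 + B12, against 3.27% and 3.5%.

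**Figure D4:**
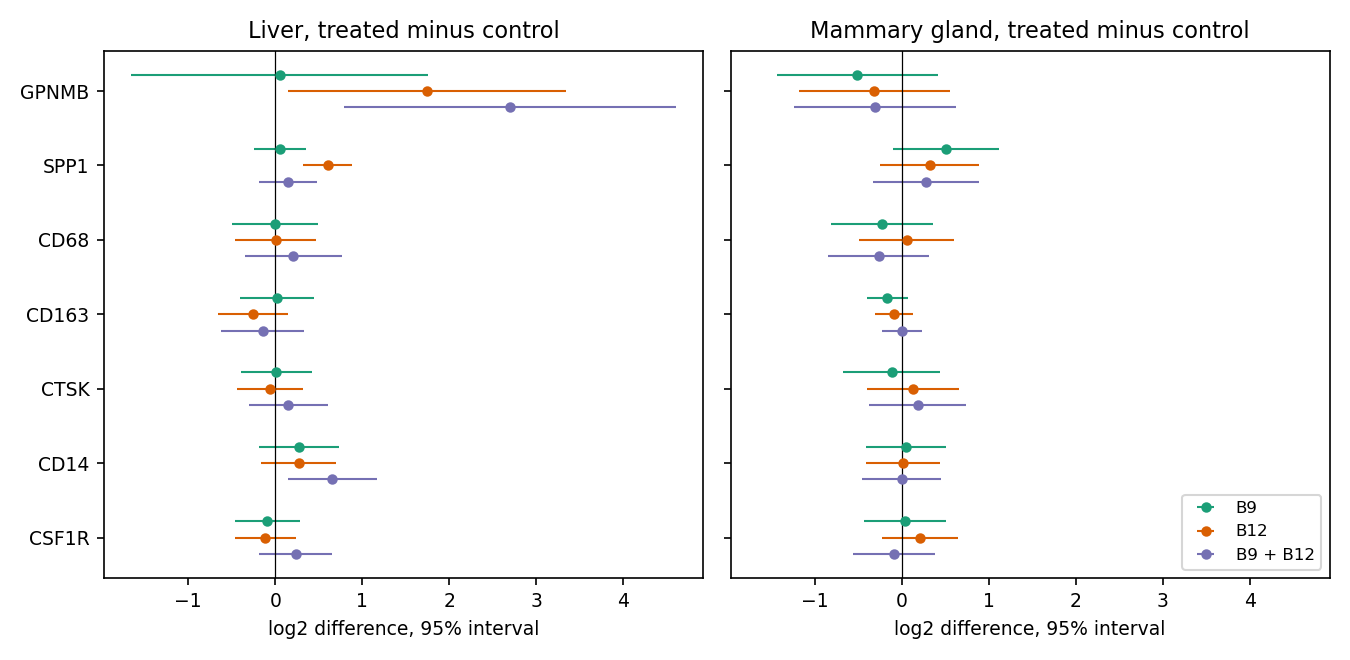
Log2 difference of each treatment from Control (x axis, points) with its 95% interval from limma (lines) for 7 genes, in the liver (left) and mammary gland (right). GPNMB with B12 (1.75) and B9 + B12 (2.70) lies furthest from 0, and the GPNMB intervals in the liver are the widest of that panel; the liver B12 and B9 + B12 values are a description, since they chose the genes.

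Between the tissues 5 members other than GPNMB passed the threshold, 4 of them higher in the liver, where 8.26% of all genes were called higher, and 1 lower, where 11.1% were. After quantiles over all 25 arrays and averaged over the 4 treatments, CD68 was 4.32-fold higher in the liver (log2 difference 2.11, SE 0.13), CD163 3.43-fold (1.78, SE 0.08), CSF1R 3.07-fold (1.62, SE 0.10) and CD14 2.09-fold (1.06, SE 0.11). Each of these 4 genes was higher in the liver in 12 of 12 cows, with adjusted p between 7.41e-14 and 2.55e-08 by limma. The sizes depended on the processing: over the alternatives, Control cows alone among them, CD68 lay between 1.94 and 3.61, CD163 between 1.26 and 3.43, CSF1R between 1.40 and 3.25 and CD14 between 0.81 and 2.77. SPP1 was higher in the mammary gland in 12 of 12 cows, with a log2 difference of −8.97 (SE 0.10, adjusted p = 7.09e-24 by limma). Its liver spots were dim. The size depended on the processing and lay between −8.02 with quantiles within each tissue and −11.59 for the processed signal, with −10.61 without an offset. The cause of this range was not tested. CTSK differed by −0.28 (SE 0.12, adjusted p = 0.0463 by limma), under 2-fold. Its other probes gave 0.09 and 0.10, and the CTSK difference turned to 1.05 when quantiles were set within each tissue, a scaling that moved the median of all genes from −0.03 to 0.32. The cow was the same for both tissues of a pair. With cow as a fixed block over the 12 cows with both tissues, CD14 differed by 0.99 and fell under 2-fold.

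GPNMB was higher in the liver by 1.47 (SE 0.31), or 2.78-fold, and in 10 of 12 cows, but this value contains the treated livers that chose the gene, and it was 2.65 with quantiles within each tissue and 2.85 in the authors' table. In Control cows alone the difference was 0.11 (SE 0.62, adjusted p = 0.917 by limma), and 1 of 3 cows was higher in the liver. After quantiles over all arrays, Control cow 42 had 9.40 in the liver against 8.05 in the mammary gland. Cow 43 had 8.39 and 8.65, and cow 51 had 8.22 and 8.98. In Control cows CD68 (1.94), CD163 (1.77), CSF1R (1.65) and SPP1 (−8.89) still passed the threshold. CD14 differed by 0.81, under 2-fold. Of the 7 members, 5 were thus called higher in the liver over all treatments, GPNMB among them, which is not independent of the choice of genes, against 8.26% of genes, and 1 lower, against 11.1%. In Control cows 3 were higher, against 8.38%, and 1 lower, against 11.6%.

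**Figure D5:**
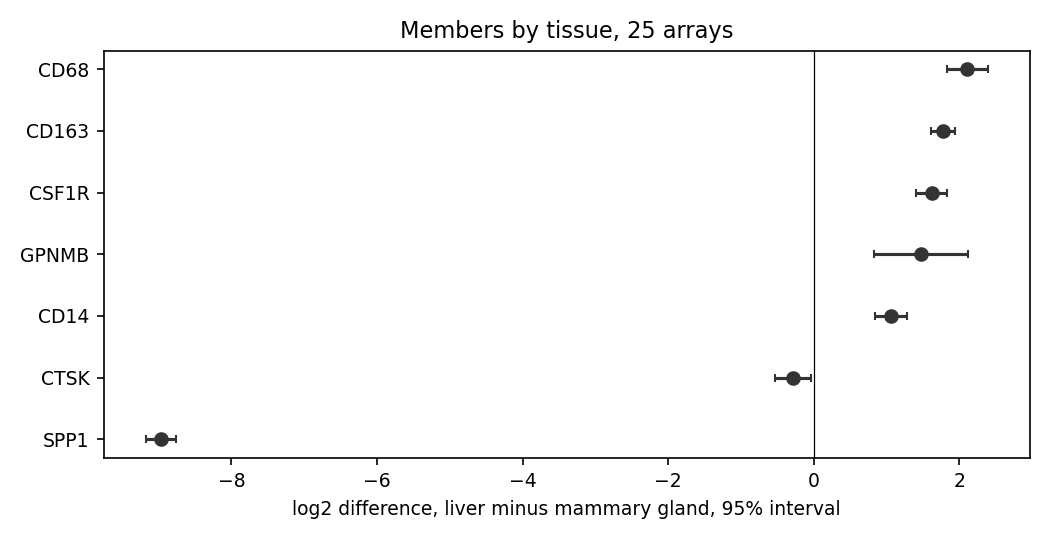
Log2 difference between liver and mammary gland over 25 arrays (x axis, points) with its 95% interval (lines) for 7 genes. SPP1 lies at −8.97 and CD68 at 2.11; the GPNMB value of 1.47 contains the treated livers and was 0.11 in Control cows.

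Among cows of the same treatment, 0 of 12 relations of a member with GPNMB passed after adjustment, by two-sided exact permutation of cows within groups (12 liver and 13 mammary arrays). The liver arrays include those with B12 that chose GPNMB. They enter as deviations from group means, which do not hold the group differences, and the liver relations are given with that limit. In the liver, deviations of GPNMB from its group means correlated with those of SPP1 at r = 0.62 (exact permutation p = 0.0810, adjusted 0.263) and rho = 0.59 (p = 0.0729, adjusted 0.292). Those of CD68 gave r = 0.53 (exact permutation p = 0.0833, adjusted 0.263) and rho = 0.66 (p = 0.0220, adjusted 0.264). Liver CTSK, CD14, CSF1R and CD163 had r between −0.38 and 0.17. Mammary CTSK gave r = 0.64 (exact permutation p = 0.0378, adjusted 0.263) and rho = 0.62 (p = 0.0450, adjusted 0.270). Mammary CD68 gave r = 0.70 (exact permutation p = 0.0876, adjusted 0.263) and rho = 0.54 (p = 0.122, adjusted 0.365), and the other members there had r between −0.25 and 0.51. Without the 2 arrays farthest from the median of GPNMB, r was 0.54 for liver SPP1, 0.52 for liver CD68, 0.60 for mammary CTSK and 0.06 for mammary CD68, so that the last rested on those arrays. In the liver the arrays left out were those of B9 cows 39 (8.16) and 41 (8.48). Cow 57 then stood alone in B9, so that this group no longer contributed to the liver values.

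The genes whose levels ran most like GPNMB were others. Among 18207 genes above background on all 12 liver arrays, the 5 named genes with the highest Pearson correlation were RGCC (0.911), LGALS3 (0.895), PDLIM4 (0.876), COL1A2 (0.869) and GFRA2 (0.867). These are descriptions over arrays that include the group differences. RGCC regulates the cell cycle, LGALS3 encodes the lectin galectin-3 of activated macrophages, PDLIM4 an actin-binding protein, COL1A2 a chain of type I collagen and GFRA2 a receptor for neurturin. Without cows 32 and 57 their correlations lay between 0.829 (COL1A2) and 0.901 (RGCC), and for deviations from the group means between 0.710 (LGALS3) and 0.889 (PDLIM4). Of the members, CD14 (0.49) ranked 2530 and CD68 (0.48) ranked 2723, CTSK had 0.18, CSF1R 0.12 and CD163 −0.53, and SPP1 was not ranked because of its dim spot in cow 39.

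LGALS3 in the liver was 8.18, 8.40 and 8.62 in Control cows 42, 43 and 51, and 7.95, 8.12 and 9.07 in B9 cows 39, 41 and 57. It was 9.80, 9.27, 9.24 and 8.89 in B12 cows 36, 37, 40 and 52, and 10.53 and 9.33 in B9 + B12 cows 32 and 38. All cows given B12 and cow 57 lay above the Control cows, which is no independent result, since LGALS3 was picked for its correlation with GPNMB on these arrays. In the mammary gland the genes most like GPNMB were DNAJC2 (0.840), STX17 (0.837), TSEN15 (0.834), NOP58 (0.815) and NFKBID (0.801), of 17045 genes over 13 arrays.

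Other markers of macrophages gave no call in any treatment comparison, where 0% of all genes were called, or 0.00359% (1 gene) in liver B12. With so few calls over all genes, nothing is read from their absence in this or any other list. Of the resident macrophage list 11 of 15 genes were found, and their mean log2 intensity on a liver array lay between 12.75 and 12.80 in Control, 12.67 and 12.88 in B9, 12.59 and 12.84 in B12, and 12.72 and 12.72 in B9 + B12. Their median difference was −0.04 for B9, −0.03 for B12 and −0.10 for both vitamins in the liver, the first and last being −0.0032 without cow 57 and 0.0049 without cow 32. Between tissues, 10 of 11 were called higher in the liver, against 8.26% of all genes, among them CD5L (8.34), which marks Kupffer cells, the complement gene C1QA (3.25) and TIMD4 (2.59). MSR1, a scavenger receptor, was lower there (−2.96). The largest B9 difference of the list in the liver was that of HMOX1, a haem oxygenase (0.54, SE 0.41, or 0.59 without cow 57), which overlapped Control. In B9 livers 1 of the 11 genes (MSR1: −0.41, SE 0.13, or −0.27 without cow 57) lay below all Control arrays, against 4.61% of all genes. With B9 + B12 there were 2 of 11 above all Control arrays, against 13.4%, and 2 below, against 9.3%. Those above were FOLR2 (0.65, SE 0.21, or 0.54 without cow 32) and VSIG4 (0.65, SE 0.34, or 0.41). Those below were SLC11A1 (−0.70, SE 0.38, or −0.85) and MSR1 (−0.51, SE 0.14, or −0.39). Of the 11 genes found of the shared myeloid list, none was called by treatment, and FCGR3A (2.02), SPI1 (1.70) and FCER1G (1.68) were higher in the liver.

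In the list of lipid-laden macrophages, 14 of 16 genes were found and none was called by treatment. LGALS3, described above, had the largest liver difference of the list with B12 (0.90, SE 0.35) and with B9 + B12 (1.53, SE 0.41, or 0.93 without cow 32). TREM2, the lipid receptor of such cells, differed by 0.41 (SE 0.28) for B9, 0.08 (SE 0.26) for B12 and 0.67 (SE 0.31) for both vitamins, the first being 0.0746 without cow 57 and the last 0.34 without cow 32. The median of the list was 0.01 for B9, 0.07 for B12 and 0.12 for both vitamins, or −0.0861 for B9 without cow 57 and −0.0382 for both without cow 32. Between the tissues 8 of the 14 were called lower in the liver, against 11.1% of all genes, and 4 higher, against 8.26%. The largest of the former were LPL (−8.32), CD36 (−6.63), FABP5 (−5.98) and PLIN2 (−5.18), which also serve milk fat, and the latter were APOE (3.69), LGMN (2.64), LIPA (2.45) and ABCA1 (2.09).

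Lysosomal genes (14 of 16 found) had liver medians of 0.15 for B9, 0.05 for B12 and 0.14 for both vitamins, and none was called by treatment. Without cow 57 the B9 median was 0.0481, and without cow 32 that of both vitamins was −2e-04. In mammary B9 all 14 had positive differences, with a median of 0.06, against −0.0018 over all genes. Of these, ATP6V0D2 was well above background on no mammary array, and the signs were not tested. Of MITF, TFEC and TFE3, transcription factors of lysosomal genes, and their regulator FLCN, and of PMEL and CD44, none was called, and TFEC differed by −0.25 (SE 0.26) with B9 and −0.43 (SE 0.30) with B9 + B12 in the liver, values that were −0.0029 without cow 57 and 0.0972 without cow 32. For the receptors of osteopontin, 7 of 8 were found and none was called by treatment. In B9 + B12 livers 3 of the 7 (ITGAV, ITGA4 and ITGB1) lay below all Control arrays, against 9.3% of all genes, and 0 above, against 13.4%. In B9 livers 1 (ITGA4) lay below, against 4.61%, and in B12 livers 1 (ITGB1), against 2.67%. ITGAV, the integrin chain that binds it, differed by −0.26 (SE 0.17) with B12 and −0.48 (SE 0.20, or −0.25 without cow 32) with B9 + B12 in the liver, and ITGA5 by −0.09 (SE 0.27) and 0.39 (SE 0.32, or 0.49 without cow 32). Of 10 ligands and partners of CSF1R and CD14, none was called by treatment. LBP, which hands lipopolysaccharide to CD14, differed by 0.60 (SE 0.49) with B9 and −0.73 (SE 0.55) with B9 + B12 in the liver, or 0.49 without cow 57 and −0.78 without cow 32. TLR2, a receptor of bacterial lipopeptides, had the largest B9 + B12 difference of this list (−0.83, SE 0.53), which turned to 0.17 without cow 32.

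On both B9 + B12 liver arrays the mean values of 7 of 17 lists lay above those of all Control arrays and those of 2 below, which is a description of 2 arrays. Of all single genes, 13.4% lay above all Control arrays in that comparison and 9.3% below. A share for means of gene lists was not computed, so nothing is read from these counts. The 7 were the lists of T and NK cells, B and plasma cells, lipid-laden macrophages, endothelial cells, adipocytes and both mammary epithelia, and the 2 were the resident macrophage and hepatocyte lists. The lipid-laden macrophage list (10.91 and 11.04 against 10.76 to 10.84 in Control) holds LGALS3, which was picked for its correlation with GPNMB. Its separation was not examined without LGALS3 and is not independent of that gene. For adipocytes cow 32 had 7.43 against 7.42 in Control cow 51. In liver B9 there was 1 above (mammary secretory epithelium), against 3.62% of genes, and 1 below (hepatocytes), against 4.61%. In liver B12 there were 0 above, against 2.32%, and 2 below (endothelial cells and osteopontin receptors), against 2.67%. In mammary B9 there was 1 above (lysosome), against 3.44% of genes, and in mammary B9 + B12 1 below (neutrophils), against 3.5%. The 8 genes of T and NK cells had a median difference of 0.43 with B9 + B12 (8 of 8 positive) and means of 9.13 (cow 38) and 9.54 (cow 32) on its arrays, against 8.58 to 9.03 in Control. The 5 found of B and plasma cells had 0.79 (5 of 5 positive), with 8.45 (cow 38) and 8.98 (cow 32) against 7.65 to 8.36. Without cow 32 these medians were 0.19 and 0.44. The 8 stellate cell and fibroblast genes had 0.24, or 0.28 without cow 32, with 10.74 and 10.83 against 10.32 to 10.79, so that these groups overlapped. No gene of these lists was called by treatment. With B12 alone the median differences of these lists were 0.10, 0.06 and −0.07. The part of these cells in the GPNMB difference was not tested.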

How the data were processed

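Per the labels, Cy3-labelled RNA was hybridised to one-colour Agilent bovine 4x44K arrays. The authors deposited scanner output with the median intensity of each spot and its background, not normalized, from Agilent Feature Extraction (9.1 per the labels, 10.7.3.1 in the file header), and calls per spot. The authors also deposited log2 values of all arrays, made with FlexArray by normexp and normalization between arrays, which gave the arrays of a tissue 1 distribution.

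Here, median intensities were corrected with normexp (offset 50), outlier spots were dropped, quantiles were normalized within each tissue, and spots of a probe averaged. 1417 control spots were left out. The array annotation (Btau_3.1) and the reference for names (RefSeq) belong to different builds, so names alone were joined (53.9% of probes) and no position is given. Treatments were compared with Control by limma 3.58.1, fitted to the whole tissue, p-values being adjusted over all probes by Benjamini-Hochberg. Tissues were compared after quantiles over all 25 arrays. Arrays lay on 8 slides of 2 to 4 arrays. Software was R 4.3.3. The scripts were tested on simulated data.

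The members, 17 gene lists (132 of 156 genes found) and tests were chosen with earlier results of these data known. Named genes are the members, list genes called or with the 2 largest differences of a list in a comparison, and the 5 genes most like GPNMB per tissue. The cow pairs the tissues: deviations from group means correlated between the tissues of a cow at −0.246 to 0.259 (median 0.0375, above 0.1 in 4 of 12 cows). Alternatives were a normexp offset of 0, no background correction, the processed signal or normexp values scaled by the 75th percentile, quantiles over both tissues or within each, a filter on dim probes, outlier spots kept, slide or cow as a block, groups fitted alone, Cyber-T (window 101, confidence 10), the authors' log2 values, the mean of all probes, and each array left out.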

Additional observations from a re-analysis of the deposited data

Results flagged for a closer look

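For GPNMB with B9 + B12, both liver arrays lay above the Control mean and all 3 mammary arrays below it, although the mammary groups overlapped and the mammary difference did not pass (SE 0.42, adjusted p = 1 by limma). Within 1 shared mammary slide the treated cow was higher by 0.27. The mean differences were 2.70 and −0.31, a gap of 3.01 on the log2 scale that was not tested. The liver value chose the gene. In the groups of 4 arrays, an array was flagged when its gap to the nearest, divided by the range of the group, exceeded 0.829. No member had such an array, although mammary CD68 with B12 had a highest value of 8.83 against a group median of 7.83.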

How the results depend on the processing

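With small differences, several tested signs depended on the setting, and none of those values passed the test in any setting but CTSK between tissues. For liver B9, SPP1 was −0.0677 without background correction. After scaling of the software's processed signal by the 75th percentile, SPP1 was −0.41, CD68 0.0673, CD163 −0.0475 and CSF1R 0.0334, and with normexp values so scaled CD68 was 0.10, CD163 −0.0063 and CSF1R 0.071. With slide as a random block CD68 was 0.0048, and as a fixed block CD68 was 0.46 and CD163 −0.38, while GPNMB moved to 1.76 (adjusted p = 0.222 by limma) with no change of sign. Without cows 32 and 57, chosen after seeing the data, GPNMB was −0.94, SPP1 −0.0261 and CTSK −0.0536. In the mammary gland, CD14 for B9 + B12 was 0.0346 with the 75th percentile and 0.0058 with quantiles over both tissues, CD68 for B9 was 0.10 with slide as a fixed block, and the mean of both CD14 probes gave −0.0041 for B9 and −0.0112 for B12. CTSK between tissues was 1.10 in the authors' table and 1.05 with quantiles within each tissue. The cause was not tested.

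Leaving out 1 array at a time, liver B9 differences ranged from −0.94 to 0.62 for GPNMB, −0.0261 to 0.15 for SPP1, −0.12 to 0.11 for CD68, −0.14 to 0.15 for CD163, −0.0832 to 0.12 for CTSK and −0.18 to 0.0069 for CSF1R. Mammary B9 gave −0.28 to 0.0843 for CTSK and −0.0947 to 0.18 for CSF1R, and mammary B12 −0.21 to 0.19 for CD68 and −0.0861 to 0.14 for CD14. Mammary B9 + B12 gave −0.0672 to 0.097 for CD163, −0.23 to 0.23 for CD14 and −0.24 to 0.0745 for CSF1R. The described GPNMB difference in the liver ranged from 1.42 to 2.15 for B12 and from 2.30 to 3.1 for B9 + B12.

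In liver B9 + B12, the contrast that chose the genes, nothing is read from calls; they numbered 1 (GPNMB) by Cyber-T, and 0 to 1 with an array left out (CD14, without cow 38, where cow 32 alone stands for the group and is assumed to vary like the others). Members higher in the liver than in the mammary gland were 3 in Control groups alone, a contrast chosen after seeing the data. With the cow as a random replicate block 5 members were higher, and as a fixed replicate block 4, since CD14 fell to 0.99, as it did to 1.00 without cow 31; the pairing changed no other call. The other 186 counts stayed within 1.5 times. The number of arrays and, for SPP1 in the liver and CD163 in the mammary gland, the signal over background limit what could be seen.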

Other observations

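The other cell type lists gave no call by treatment in either tissue. At most 0.00359% of all genes (1 gene) were called in a comparison, so nothing is read from this. In the liver with B9, B12 and B9 + B12, the median log2 difference was −0.05, −0.01 and −0.0047 for the 8 hepatocyte genes found, 0.03, −0.20 and 0.23 for 4 endothelial genes, and −0.25, 0.06 and −0.14 for 4 cholangiocyte genes. It was 0.23, 0.05 and 0.02 for 5 neutrophil genes, 0.26, 0.48 and 0.23 for the 9 genes of the mammary secretory epithelium, 0.10, 0.02 and 0.25 for 5 myoepithelial genes, and 0.10, −0.16 and 0.08 for 4 adipocyte genes. Without cow 32 the B9 + B12 medians were −0.0295 for the endothelial, −0.0493 for the cholangiocyte, −0.57 for the neutrophil, 0.0557 for the myoepithelial and 0.0159 for the adipocyte genes. Without cow 57 the B9 medians were 1e-04 for the endothelial, 0.0559 for the myoepithelial and −0.0948 for the adipocyte genes. In mammary B9 + B12, 3 of 5 neutrophil genes lay below all Control arrays, against 3.5% of all genes, with a list median of −0.30. Among the lymphocyte genes of B9 + B12 livers, MZB1 of plasma cells (1.24, SE 0.61), POU2AF1 of B cells (0.79, SE 0.30), LCK (0.99, SE 0.28), CD3E (0.96, SE 0.37) and CD8A (0.57, SE 0.31) of T cells lay above all Control arrays, chosen for naming after their values were seen. These were 2 of 5 genes of B and plasma cells and 3 of 8 of T and NK cells, against 13.4% of all genes above all Control arrays in that comparison. Without cow 32 their differences were 0.78, 0.14, 0.68, 0.65 and 0.16.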
